A study of Mus musculus with 26 samples.

Results

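The KLF4 antibody background was read from KLF4 ChIP-seq in Klf4-/- mouse embryonic stem cells (mESC), which lack the protein the antibody was raised against. Its members were the 5847 segments covered by a peak in the list of KLF4-ChIP-KO1 and also in that of KLF4-ChIP-KO2, by at least 1 bp. They came from 8853 distinct regions of the first list, of which 66.0% met a region of the other, and from 14250 regions of the second, of which 41.0% did. The 6 lists made with PeaKDEck, a peak caller based on kernel density estimates, held 41184 distinct regions together, and all peak lists of the series held 129057. The segments covered 2.83 Mb, with a median width of 500 bp and a range from 50 to 1900 bp. At the edge of the rule, 10 segments were 50 bp wide, and 5 of the 3011 KO1 regions without a KO2 region lay within 50 bp of one.

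KLF4 is a zinc finger transcription factor of the pluripotency network, and it binds GC-rich sites of the CACCC type through its zinc fingers. An antibody pulldown from cells without the protein recovers DNA that does not depend on that protein, such as open chromatin, repeats whose copies pile up at a single mapped place, or sites of another protein the antibody recognises. In ChIPmentation the Tn5 transposase inserts adaptors into chromatin on the beads, and in M-ATAC and M-ChIP the adaptors are methylated so that the DNA can be bisulfite converted and its methylation read from the same fragments.

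The study measured accessibility or binding together with methylation in mESC, and it used cells without KLF4 as the control of its KLF4 antibody. The knockout group had 2 samples of ordinary, unconverted KLF4 ChIP-seq in the Klf4-/- line, which was made in another laboratory, with no KLF4 expressed again. The WT and R462A groups had 2 samples each of the same line infected with a lentivirus that expresses mouse KLF4, wild type or with an arginine-to-alanine change in the DNA-binding part, under a doxycycline-induced promoter with a tdTomato marker, after puromycin selection and 2 days of doxycycline. M-ATAC (4 samples), its unconverted control M-ATAC-NC (2), ATAC-seq (2), CTCF ChIP-seq (2), CTCF M-ChIP (2) and its unconverted control (2), and RNA-seq (2, deposited as 1 merged table) came from KH2 mESC with their own Klf4. All cells were labelled KH2 and were grown on irradiated feeder cells that were removed by pre-plating. In the merged RNA table the 8 stem cell markers read (Pou5f1, Sox2, Nanog, Zfp42, Esrrb, Dppa5a, Utf1 and Tdgf1) lay between 229 and 5394 TPM, and the 9 feeder fibroblast markers between 0.0800 TPM for Lum and 612 TPM for Fn1, with Col1a1 at 48.69 TPM. The 4 WT and R462A peak lists belong to samples titled M-ATAC, although the study's methods name PeaKDEck for KLF4 and the names of the lists are those of converted KLF4 libraries. They are called WT and R462A lists here. Since the knockout lists were unconverted and these lists were converted, genotype and assay cannot be told apart in any comparison between them. The read depth behind the KLF4 lists was not given in the sources used here, and nothing states that the replicates were separate cultures, so that the spread between them may be technical.

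The segments were of several kinds, and 5 sequences show them (GRCm38, the mm10 assembly, plus strand, 300 bases each). The first pair are accessible regions with low methylation, KOseg2957 at chr2:84743654-84743953 at the start of the gene Gm19426 and KOseg0276 at chr1:136696188-136696487 at the start of the long noncoding RNA gene Platr22. KOseg2158 at chr17:3081904-3082203, in an intron of the pseudogene Pisd-ps2, is a methylated region found in all 6 lists. In these 3, capitals mark cytosines that 5 or more merged M-ATAC reads cover, where a G stands for the cytosine of the other strand.
KOseg2957: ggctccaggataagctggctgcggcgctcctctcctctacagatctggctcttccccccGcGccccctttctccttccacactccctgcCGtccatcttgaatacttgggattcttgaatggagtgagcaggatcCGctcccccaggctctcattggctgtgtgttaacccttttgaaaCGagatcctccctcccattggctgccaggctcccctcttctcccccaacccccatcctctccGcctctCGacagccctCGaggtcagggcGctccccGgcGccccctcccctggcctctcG
KOseg0276: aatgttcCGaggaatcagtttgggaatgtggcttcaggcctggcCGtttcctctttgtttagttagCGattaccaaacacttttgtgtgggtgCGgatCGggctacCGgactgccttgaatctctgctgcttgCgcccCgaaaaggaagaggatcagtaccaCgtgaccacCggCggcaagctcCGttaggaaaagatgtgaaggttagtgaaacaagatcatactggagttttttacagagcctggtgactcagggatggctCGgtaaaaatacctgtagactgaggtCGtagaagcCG
KOseg2158: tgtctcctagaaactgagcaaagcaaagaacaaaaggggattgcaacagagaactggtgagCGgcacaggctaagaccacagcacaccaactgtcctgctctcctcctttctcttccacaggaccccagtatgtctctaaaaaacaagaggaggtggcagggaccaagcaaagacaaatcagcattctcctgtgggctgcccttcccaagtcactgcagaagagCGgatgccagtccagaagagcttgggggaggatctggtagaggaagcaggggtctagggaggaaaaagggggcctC
KOseg2297 at chr17:39844067-39844366, over an exon of Gm26917, is part of the longest segment, and capitals mark the KLF4 core. KOseg5307 at chr8:105680015-105680314 holds exon block 11 of Ctcf, in capitals, and was chosen after its values were seen.
KOseg2297: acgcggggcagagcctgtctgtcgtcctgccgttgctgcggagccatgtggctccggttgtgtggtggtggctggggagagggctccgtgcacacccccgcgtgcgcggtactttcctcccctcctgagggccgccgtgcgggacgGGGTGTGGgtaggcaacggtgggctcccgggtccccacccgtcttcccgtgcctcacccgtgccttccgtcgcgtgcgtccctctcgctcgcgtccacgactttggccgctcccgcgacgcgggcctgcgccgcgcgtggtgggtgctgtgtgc
KOseg5307: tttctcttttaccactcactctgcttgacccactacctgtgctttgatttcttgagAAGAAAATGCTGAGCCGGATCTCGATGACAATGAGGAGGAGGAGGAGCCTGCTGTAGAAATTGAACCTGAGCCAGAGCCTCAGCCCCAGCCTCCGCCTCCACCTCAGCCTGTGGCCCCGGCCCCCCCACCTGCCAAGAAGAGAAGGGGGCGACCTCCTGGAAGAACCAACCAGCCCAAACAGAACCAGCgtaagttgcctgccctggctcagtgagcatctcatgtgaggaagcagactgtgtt
Of the 17 measured cytosines in the printed stretch of KOseg2957, 14 had no methylated read, and 5 of 440 reads (1.14%) were methylated. In that of KOseg0276, 24 of 25 cytosines had none, and 2 of 446 reads (0.448%) were methylated. In that of KOseg2158 each of the 5 cytosines lay between 69.2% and 92.3%, with 58 of 70 reads (82.9%) methylated. The capitals thus mark almost wholly unmethylated sites in the first pair and methylated ones in KOseg2158.

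Most knockout segments were not found in the lists of cells that express KLF4. The WT lists held 777 (13.3%) and 1001 (17.1%) of the 5847 segments, and the R462A lists 190 (3.25%) and 208 (3.56%). These lists cover 3.89 and 5.07 Mb (WT) and 2.72 and 2.10 Mb (R462A), a small part of the genome. Their share of genome tiles was not taken, so the recurrence has no background beside it. Both WT lists held 627 segments (10.7%, 95% Wilson interval 9.96 to 11.5, which like all intervals here covers counting error only), both R462A lists 136 (2.33%, 1.97 to 2.74), all 4 lists 116 (1.98%), and none of them 4632 (79.2%, 78.2 to 80.2). By number of lists, 526 segments recurred in 1, 533 in 2, 40 in 3 and 116 in 4. Seen from the other side, knockout segments touched 628 of the 3408 segments shared by both WT lists (18.4%) and 134 of the 959 shared by both R462A lists (14.0%). The WT and R462A lists also repeated little of themselves. A region of the other replicate met 36.4% and 28.9% of regions in the WT lists, and 13.6% and 17.1% in the R462A lists. Low recurrence of knockout segments thus cannot be told apart from low agreement of these lists with their own replicates.

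The share of each list that overlapped a knockout segment was 8.30% and 8.47% of regions in the WT lists (9329 and 11754 regions) and 2.66% and 3.65% in the R462A lists (7000 and 5536 regions). The groups did not overlap, with means of 8.38% ± 0.119 (SD, n = 2) and 3.15% ± 0.701 and a difference of 5.23 percentage points. The exact two-sided permutation test gave p = 0.333, the smallest that 2 lists against 2 can give. The study's methods state that KLF4 peaks present in Klf4-/- cells were filtered out, and the deposited WT and R462A lists still held regions that overlap them. The methods do not say that this filter was applied to the lists of single samples.

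**Figure D1:**
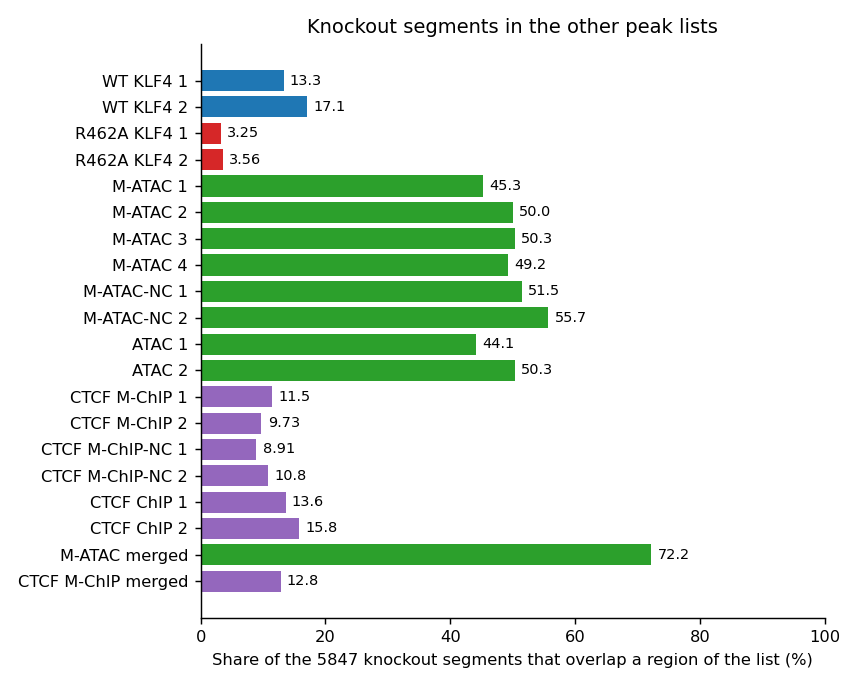
Share of the 5847 knockout segments (percent, x axis) that overlap a region of each other peak list by at least 1 bp, with KLF4 lists in blue (WT) and red (R462A), accessibility lists in green and CTCF lists in purple. The KLF4 lists hold 3.25% to 17.1% of the segments, the accessibility lists 44.1% to 72.2% and the CTCF lists 8.91% to 15.8%.

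Knockout segments lay mostly in open chromatin of KH2 mESC. A merged M-ATAC peak overlapped 4223 of them (72.2%, 71.1 to 73.4), where 2.10% of all 5294579 genome tiles of 500 bp did. Peaks of both ATAC-seq samples overlapped 2416 (41.3%, 40.1 to 42.6), against 0.694% of tiles. M-ATAC samples 1 to 4 held 45.3%, 50%, 50.3% and 49.2% of the segments, with sample 1 the lowest. Every M-ATAC sample held 2117 segments (36.2%), and none of the 4 held 2239 (38.3%). An accessibility list of any kind touched 4377 segments (74.9%). The share in M-ATAC peaks fell across 5 equal classes of the segments ranked by the larger of their PeaKDEck p-values, from 85.9% in the class with the lowest p-values over 77.9%, 70.5% and 65.6% to 61.2% in the last. The p-value of 1054 segments (18%) was at the lowest value the lists hold, 1e-12, in both replicates, and the width also fell along these classes, from a median of 650 to 300 bp.

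Accessible regions were not met evenly. Of the 66726 merged M-ATAC regions, 4244 (6.36%) held a knockout segment, and their median fold enrichment was 10.1 against 7.01 for the rest. In 10 equal classes by fold enrichment the share with a knockout segment was 2.97% (2.59 to 3.4) in the lowest and 15.2% (14.4 to 16.1) in the highest. Within 3 kb of a transcription start (promoter regions) the share went from 3.39% to 11.3%, and elsewhere (distal regions) from 2.65% to 20.2%. The most enriched distal regions were thus the class most often met by the antibody background. Fold enrichment here is that of M-ATAC in KH2 cells, and accessibility of the knockout cells was not analysed.

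**Figure D2:**
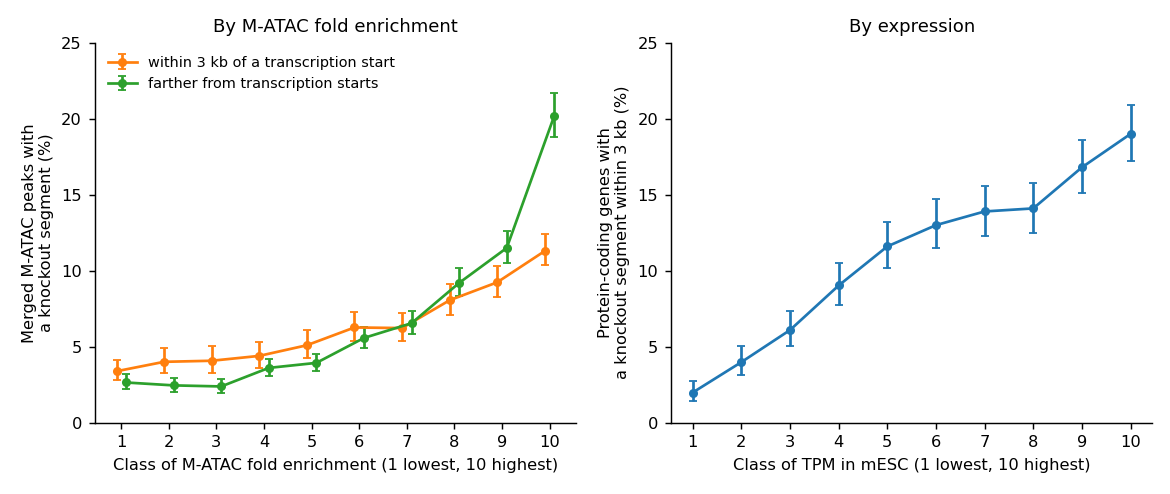
Left, share of merged M-ATAC regions with a knockout segment (percent) in 10 equal classes of M-ATAC fold enrichment, for promoter and distal regions. Right, share of protein-coding genes above 0 TPM with a knockout segment within 3 kb of a transcription start, in 10 equal classes of TPM; bars are 95% Wilson intervals. Both shares rise along the x axis, to 20.2% for distal regions and 19% for genes in the highest class.

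CTCF sites were a smaller share of the knockout segments. CTCF is the zinc finger protein that holds chromatin loops at their ends, and its sites served as a second factor to compare with. Peaks of both CTCF ChIP-seq samples overlapped 778 segments (13.3%, 12.5 to 14.2), against 1.14% of genome tiles, and the merged CTCF M-ChIP list overlapped 748 (12.8%). Among M-ATAC regions, however, 12.8% of those with a knockout segment and 13% of those without one were in both CTCF ChIP lists. Near transcription starts these shares were 17.5% and 15.0%, and away from them 9.51% and 11.7%, so that the direction of the difference turned with the place. A CTCF list alone, with no accessibility list, accounted for 283 segments (4.84%). The remaining 1187 segments (20.3%) were in no accessibility and no CTCF list. Of these, 34.3% were near a transcription start and 8.26% had p-values at 1e-12 in both replicates, compared with 41.9% and 21.2% of the segments in an accessibility list.

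Promoters held 2343 segments (40.1%, 38.8 to 41.3), against 16.5% of genome tiles. A further 28.3% lay elsewhere in a gene and 31.7% between genes, and the median distance to a transcription start was 5427 bp. For comparison, promoters held 51.6% of the segments shared by the WT lists and 23.9% of those shared by the R462A lists. Among merged M-ATAC regions, 41.3% of those with a knockout segment and 39.6% of those without one were promoter regions. The promoter share of the segments was thus close to that of open chromatin. The KLF4 core was searched as GGGTGTGG or GGGCGTGG on both strands, and a match is a description of the letters and not of a site. It occurred in 821 knockout segments (14.0%, 13.2 to 15.0), in 35.3% of the WT segments, in 2.29% of the R462A segments and in 3.96% of genome tiles. Knockout segments thus held the core less often than WT segments and more often than tiles of the whole genome, which have a lower GC content (41.7%, against a median of 48.2% in the segments). In windows of 500 bp the core was in 14.5% of knockout segments. It was in 17.0% of promoter and 14.1% of distal M-ATAC regions without a knockout segment, so the segments held no clear excess over open chromatin.

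The same measures were taken over whole lists so that samples were the replicates. The share of regions in merged M-ATAC peaks was 61.2% and 57.6% in the knockout lists, 28.1% and 39.2% in the WT lists, and 1.76% and 3.23% in the R462A lists. The knockout lists were the highest, by 25.7 points over WT and 56.9 over R462A. The ATAC share was 12.6 and 31.3 points higher and the CTCF share 5.61 and 10.2 points higher than in the WT and R462A lists, again with no overlap between groups. The core share was 13.8% and 12.4% in the knockout lists, below the 19.9% and 26.2% of the WT lists (difference of -9.94 points) and above the 2.86% and 3.20% of the R462A lists (difference of 10.1 points). The promoter share, at 39.1% and 33.8%, overlapped that of the WT lists (34.2% and 41.7%) and exceeded that of the R462A lists (19.5% and 20.7%) by 16.3 points. For the promoter share against WT, p was 0.667, and its direction turned when KO replicate 2 (1.09 points) or WT replicate 2 (2.20 points) was left out. For each of the other 9 comparisons the exact permutation test gave p = 0.333, and 0.370 after Benjamini-Hochberg adjustment over 10 comparisons, so none can pass a threshold of 0.05 in this design.

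**Figure D3:**
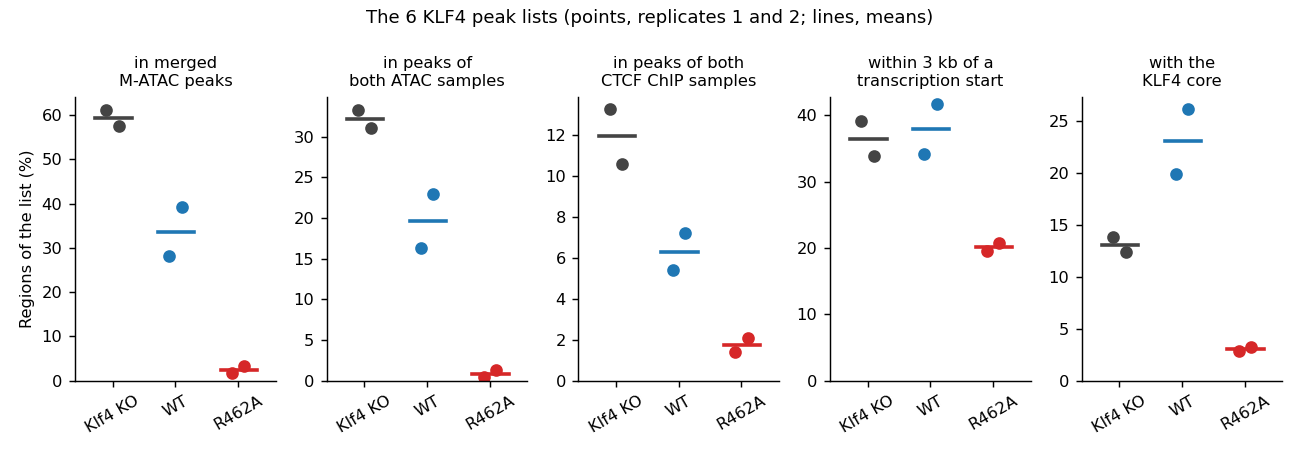
Percent of the regions of each KLF4 list (y axis, 1 scale per panel) that lie in merged M-ATAC peaks, in peaks of both ATAC samples, in peaks of both CTCF ChIP samples, within 3 kb of a transcription start, or that hold the KLF4 core. Points are lists and lines are means of 2; the knockout lists are highest in the first 3 panels and lie between WT and R462A for the core.

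The segments that recurred in cells with KLF4 differed from the others. The 953 found in a WT list and in no R462A list were in M-ATAC peaks in 86.6% of cases, near transcription starts in 61.9%, and held the core in 33.1%, close to the 35.4% of WT segments that touched no knockout segment. The 4632 found in no WT or R462A list had values of 71.8%, 35.1% and 10.5%. The 198 found in both kinds of list were in M-ATAC peaks in 24.2% of cases, and 35.9% of them were masked as repeats over most of their length, against 15.7% of all segments. They were near transcription starts in 52.5% of cases and held the core in 8.59%, and of the 116 in all 4 WT and R462A lists 63.8% were near starts. The 64 found in an R462A list alone had 39.1% in M-ATAC peaks, 37.5% near starts, 3.12% with the core and 42.2% masked. Of the 116 segments in all 4 lists, 47 lay in 1 run on chromosome 11 (described below), where 87.9% of 58 segments were near starts. The promoter shares of segments in both kinds of list thus rest in part on 1 place. The promoter share and the core were higher with WT alone than in no WT or R462A list, and masked repeats were more frequent with R462A. The class with WT alone overlaps WT lists by definition. Its median GC content was also higher than that of segments in no WT or R462A list (53.3% against 47.6%), so the core and base composition cannot be told apart here.

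Zfp42, a zinc finger gene used as a marker of naive stem cells, had a segment over its transcription start (KOseg5044, chr8:43306701-43307350) with p at 1e-12 in both knockout lists, a core match, an M-ATAC enrichment of 18.5-fold and a place in both WT lists. It was 1 of 13 genes among 27 on a list of pluripotency genes (48.1%) with a segment within 3 kb of a transcription start, where 5.54% of the 47187 genes of the RNA table had one. The list is of genes with high levels (median 132 TPM), and all 27 had an M-ATAC region there, where 11.7% of genes with such a region had a segment. Dppa2, a gene of early germ and stem cells, had a segment over its start (KOseg2107) with p at 1e-12 in both lists and 16.8-fold M-ATAC enrichment, but it was in no WT or R462A list. Lin28a, which encodes an RNA-binding protein that blocks let-7, had a segment 86 bp from a start (KOseg3740, p at 1e-12 in both). L1td1, which encodes another RNA-binding protein, had one at 858 bp (KOseg3609, p at 1e-12 in both). These 3 genes had strong knockout segments that did not recur.

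The nuclear receptor gene Esrrb had segments 784 bp and 2359 bp from starts, the second of which held the core and was in WT list 2. Mycn, a MYC family gene, had segments at 1466 and 1237 bp, and the first of them was in both WT lists. Dppa3, a maternal-effect gene, also had 2 segments, at 1298 and 1610 bp. The other genes with a segment were Pou5f1 at 2918 bp, the transcription factor genes Tfcp2l1 (1245 bp), Sall4 (2296 bp) and Utf1 (1662 bp), Dppa5a (1024 bp), and Tdgf1 (1143 bp), which encodes a NODAL co-receptor. Of the 16 segments, 13 were in M-ATAC peaks, 2 in both WT lists and 0 in an R462A list. Sox2, Nanog, Klf4, Tbx3, Dppa4 and the remaining 9 genes of the list had none within that distance.

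Klf4 itself (chr4:55527143-55532466, minus strand, 270.41 TPM in KH2 mESC) had no region in the gene or within 10 kb in any of the 6 KLF4 lists. The nearest region lay 49.4 and 45.9 kb away in the knockout lists, 49.3 kb in both WT lists, and 282 and 139 kb in the R462A lists. Each other list except M-ATAC sample 4 had at least 1 region in the gene. As the WT lists were empty there too, the locus does not check the knockout.

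Genes of the KLF and SP families, whose products bind similar sites, had segments at 4 of 26: Klf3, Klf11, Klf13 and Sp1. That share (15.4%) stands beside 5.54% of all genes and 11.7% of the 21158 genes with an M-ATAC region within 3 kb, which 24 of the 26 had. Segments over the starts of Klf3, Klf11 and Klf13 were in both WT lists, with M-ATAC enrichments of 8.96-, 9.08- and 13.8-fold, and that of Sp1 (13-fold) was in none. Immediate early genes, which respond quickly to growth signals, had segments at 4 of 20 (20%), and all 20 had an M-ATAC region. Over the starts of Junb and Jund, which encode AP-1 subunits, the segments held the core and were in both WT lists, while those over Nr4a1, a nuclear receptor gene, and over Ier3 were not. Imprinted genes, expressed from 1 parental allele, had segments at 5 of 21 (23.8%), with an M-ATAC region at 19: Snrpn, Grb10 (3 segments), Zrsr1, Airn and Cdkn1c. The Grb10 segment with p at 1e-12 in both lists had an M-ATAC enrichment of 25.2-fold, above that of each segment of the 3 lists before, and 29 of 202 reads methylated (14.4%). The segment over the start of Cdkn1c, a cell cycle inhibitor gene, was in both WT lists and had 4 of 1293 reads methylated (0.309%).

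Ribosomal protein genes, at a median of 2268 TPM, had segments at 13 of 76 (17.1%), and 12 of these 13 were in M-ATAC peaks. That of Rpl8 was in both WT lists, and that of Rplp1, the fourth-highest gene by TPM with a segment (9679.94 TPM), lay 1009 bp from a start in no M-ATAC peak. Replication histone genes had segments at 3 of 65, microRNA genes at 73 of 2202 (3.32%), small nuclear and nucleolar RNA genes at 77 of 2941 (2.62%) and pseudogenes at 142 of 9647 (1.47%), shares below the 5.54% of all genes. An M-ATAC region lay within 3 kb of a start at 62 of the histone genes. One lay at only 600 of the microRNA genes, 580 of the small nuclear and nucleolar RNA genes and 1149 of the pseudogenes. Among all genes with such a region 11.7% had a segment. The low shares of microRNA genes, small RNA genes and pseudogenes thus do not show a shortage among those with open chromatin. None of the 9 feeder fibroblast markers had a segment, and 7 of them had an M-ATAC region.

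Most genes with a knockout segment near a start were expressed, and most genes nearest to the other segments were below 1 TPM. The 2614 genes with a segment within 3 kb of a start had a median of 8.88 TPM (95% interval 7.65 to 9.94). Of these, 68.8% had at least 1 TPM and 379 had 0 TPM. Genes with an M-ATAC region and no knockout segment there had a median of 2.44 TPM, genes with a WT segment outside the knockout segments 10.1 TPM, and all genes 0.01 TPM. Among protein-coding genes these medians were 19.4, 9.79, 18 and 2.77 TPM. In 10 equal classes of TPM among protein-coding genes above 0 TPM, the share with a segment went from 1.99% (1.43 to 2.77) to 19% (17.2 to 20.9). Genes nearest to segments outside promoters had a median of 0.370 TPM, and 45.1% of them had at least 1 TPM. Most genes with a segment, 2434, had 1, while 154 had 2, 19 had 3 and 7 had more. TPM values are those of the authors' merged table, with no spread between replicates, in cells with KLF4.

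Of the 5 genes of highest TPM with a segment, 4 shared the same one. Gm28661 (17120.14 TPM), Gm10925 (14475.46 TPM), Gm28437 (13974.87 TPM) and Gm28438 (8139.36 TPM) lie close together and shared KOseg0042 (chr1:24612451-24613000), which had p at 1e-12 in both knockout lists, was in all 6 lists and was in no M-ATAC peak. They are annotated pseudogenes near Gm10222, and whether reads of similar copies elsewhere add to these values was not tested.

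Methylation in knockout segments was low. In the merged M-ATAC table, which holds cytosines inside M-ATAC peaks only, 57421 cytosines with at least 5 reads fell in 3693 segments, and 17680 of 1011166 reads were methylated (1.75%, 1.72 to 1.77). In promoter segments the level was 0.754% and in the others 5.69%. Distal M-ATAC regions with a knockout segment had 5.61% (5.52 to 5.70) and those without 8.85% (8.80 to 8.89), and promoter regions had 0.731% and 0.821%. Reads of 1 molecule and cytosines of 1 region are not independent, so these intervals are too narrow for a comparison between regions. Of the cytosines in knockout segments, 94.9% were under 20% methylated and 66 (0.115%) over 80%, against 94.3% and 0.173% of the other cytosines of M-ATAC peaks. In the opposite direction, 84.1% and 86.6% had no methylated read. Over cytosines of 50 reads or more the mean was 0.439% in segments and 0.317% outside. Cytosines in segments also had more reads (median 13 against 9), so methylation and read coverage cannot be told apart in these comparisons. Segments in a WT list and in no R462A list had 0.670%, and those in no WT or R462A list 2.53%. These classes also differed in promoter share (61.9% and 35.1%) and were not split by place, so methylation and place cannot be told apart here.

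Few segments departed from that level. Among 2387 segments with at least 5 measured cytosines, 412 had no methylated read, 160 were over 20% and 13 over 50%. The 5 with the highest lower bound were KOseg0704 (77%, 104 of 135 reads), KOseg2158 in Pisd-ps2 (75.7%, 103 of 136), KOseg1207 in an exon of Ahr (75.7%, 28 of 37), KOseg0721 (68.8%, 66 of 96) and KOseg0708 (60.4%, 102 of 169). Ahr encodes the aryl hydrocarbon receptor, and its segment, 22779 bp from a start, was in both CTCF ChIP lists and in no WT or R462A list. The other 4 were in all 6 KLF4 lists, and KOseg0704, KOseg0721 and KOseg0708 lay in Sfi1, a centrosome gene.

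These 3 belong to the largest run of segments less than 10 kb apart, 58 segments over 73.1 kb at chr11:3127001-3200100. The run overlaps the genes Sfi1 and Drg1, and 50 of its segments lay in Sfi1. Of the 58, 49 were in both WT lists, 49 in both R462A lists, 47 in all 4, and 15 in M-ATAC peaks. In the 14 segments of the run with measured cytosines, 581 of 969 reads were methylated (60%, 56.8 to 63.0). Without the run, the share of segments in both R462A lists was 1.5% in place of 2.33%, and that in both WT lists 9.98%. The third largest run, 8 segments on the mitochondrial chromosome, had 6 segments in all 4 lists and none in an M-ATAC peak.

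Strong segments included repeated DNA. Of the 1054 segments with p at 1e-12 in both knockout lists, however, 86.6% were in M-ATAC peaks. Masked as repeats over most of their length were 21.3% of them, against 15.7% of all segments. The 10 segments named next are the longest of these ties and do not represent them. By the larger p-value, ties going to the longer segment, the leading 10 were KOseg2297 in Gm26917 (1900 bp) and KOseg2299 over AY036118 and Gm42418 (1450 bp), both at a place on chromosome 17 where a ribosomal RNA gene, CT010467.1, is annotated, KOseg5739 and KOseg5742 in mitochondrial genes, KOseg0735 and KOseg0738 in Sfi1, KOseg2983 in Gm10800, KOseg2158, KOseg2957 and KOseg0276. All had p at 1e-12 in both lists. The first 8 of these names were in all 6 lists, KOseg0276 (11.2-fold M-ATAC enrichment) was in WT list 2, and KOseg2957 (9.48-fold) was in no WT or R462A list. Of the 116 segments in all 6 lists, 47 were in the Sfi1 run, 6 on the mitochondrial chromosome and 3 each near Gm21738, at the ribosomal place and near Gm10800. The lists made with MACS2 had blacklisted regions removed, by their names, and held no mitochondrial region. No such filter is stated for the PeaKDEck lists.

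The second largest run lay on the exons of Ctcf (ENSMUSG00000005698, chr8:105636568-105682922, plus strand, 82.94 TPM). Ctcf had 10 segments, and 9 of them covered exon blocks 3 to 9, 11 and 12 of its 12 (merged exons of coding transcripts), 1 segment each. All 9 had p at 1e-12 in KO1, and none was in a merged M-ATAC peak. The midpoints of 7 of the 9 were within 36 bp of the middle of their exon. The 189-bp exon printed above for KOseg5307 lay 14 bp off the middle of its 500-bp segment. Exon blocks met by a region numbered 10 and 9 in the knockout lists, 5 and 4 in the WT lists, 3 and 9 in the R462A lists, and 10 and 7 in the CTCF ChIP lists. The other CTCF lists met fewer, with 1 and 2 in CTCF M-ChIP, 1 and 3 in CTCF M-ChIP-NC and 3 in merged CTCF M-ChIP, and replicate 1 of each met the first block alone. Block 6 was met in no CTCF list. In the M-ATAC, M-ATAC-NC and ATAC lists no exon block other than the first was met. This view of exons was made after the run was seen. Among all protein-coding genes, only Sfi1 had more exon blocks with a segment (18 of 34), and those below Ctcf had at most 5. Why segments followed the exons was not tested.

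**Figure D4:**
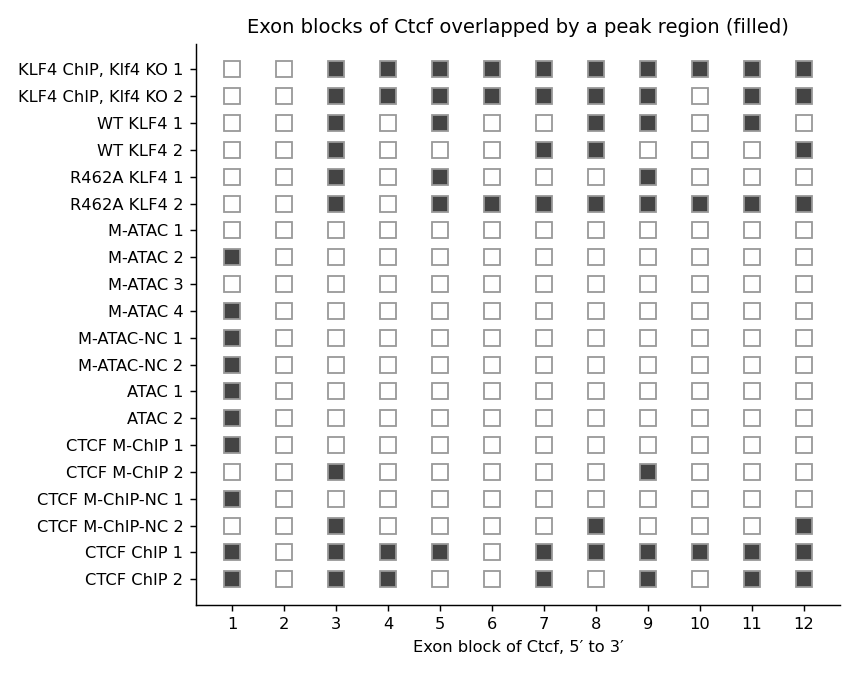
Exon blocks of Ctcf from 5′ to 3′ (x axis, blocks 1 to 12) that overlap a region of each peak list (rows), filled where they do. Blocks beyond the first are filled in the 6 KLF4 lists, both CTCF ChIP lists and replicate 2 of CTCF M-ChIP and of CTCF M-ChIP-NC, and in none of the M-ATAC, M-ATAC-NC and ATAC lists, and block 6 is filled in 3 KLF4 lists alone.

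Chromosome 8 held more segments than its size. It had 581 of the 5847 (9.94%) and makes up 4.75% of the nuclear genome, a view taken after values were seen. It held 11.3% and 10.5% of regions in the knockout lists, 17.3% and 14.8% in the WT lists, 19.4% and 20.2% in the R462A lists, and 4.92% to 5.4% in the lists from KH2 mESC. Of the M-ATAC regions on chromosome 8, 11.3% (10.3 to 12.4) held a knockout segment, while the share on each other autosome lay between 4.77% and 7.17% and was 5.41% on chromosome X. Each of the 6 KLF4 lists was thus above the share of the genome and the KH2 lists were close to it, and the cause was not tested. Without chromosome 8 the share of segments in merged M-ATAC peaks was 72.9%, and that in no WT or R462A list 80.3%.

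**Figure D5:**
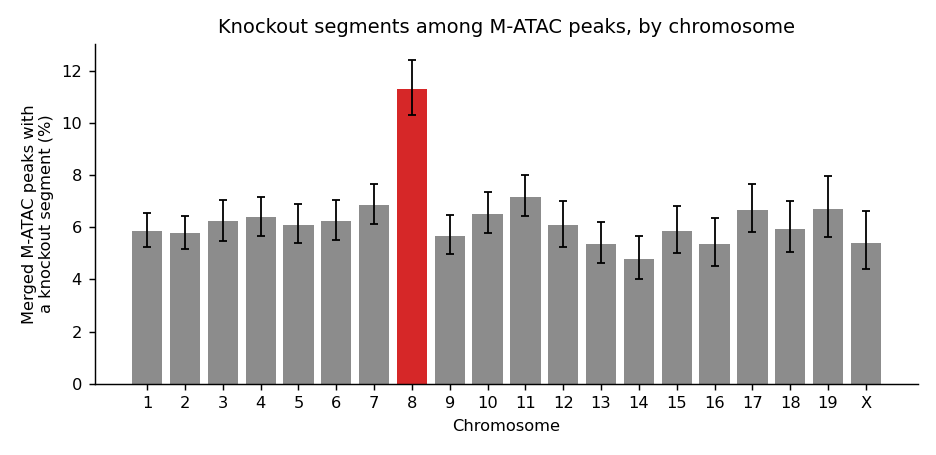
Share of merged M-ATAC regions that hold a knockout segment (percent, y axis) on each autosome and chromosome X (x axis), with 95% Wilson intervals as bars. Chromosome 8 (red) stands at 11.3% and the others between 4.77% and 7.17%.

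Short motifs of other factors of stem cells were searched in windows of 500 bp on the segments, on both strands, and were chosen after other values were seen. GGGCGTGG, the form of the core with a CpG, was in 5.96% of knockout windows, 24.4% of WT windows and 1.09% of genome tiles, and GGGTGTGG in 9.09%, 17.2% and 2.93%. The GC-box GGGGCGGGG, which does not contain either form of the core, was in 7.33%, 16.4% and 0.837%. ACAATGG, a SOX-type motif, was in 12.5% of knockout windows, 6.58% of WT windows and 8.49% of tiles. Among distal M-ATAC regions ACAATGG was in 19.3% (17.8 to 20.9) of those with a knockout segment and 12.3% (12 to 12.6) of those without, and in the class of highest enrichment in 32.0% (28.3 to 35.8) and 16.1% (14.6 to 17.6). The difference was thus also present within the class of highest enrichment. The KLF4 core was in 13.8% and 14.1% of distal M-ATAC regions with and without a knockout segment, which differed by less than their counting error. TGACTCA, the AP-1 motif, was in 15.6% of distal regions with a knockout segment and 19.6% of those without. ATTTGCAT, the octamer, was in 7.46% and 6.65%, and TCAAGGTCA, the motif of ESRRB, in 3.33% and 2.85%. In the class of highest enrichment the direction turned for the octamer, with 6.46% and 8.52%. There TGACTCA was in 14.6% and 17.1%, and TCAAGGTCA in 2.38% and 2.02%. TTTGCAT followed by ACAAT after 1 base was rare in distal regions, at 0.0803% with a knockout segment and 0.106% without.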

How the data were processed

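KLF4 ChIP-seq of Klf4-/- mESC was analysed with the other peak lists, the merged M-ATAC methylation table and the merged TPM table. The members and lists were chosen with earlier results of these data known. Per the submitters' processing notes and the study's methods, adaptors were trimmed (Trim Galore 0.4.4), reads were mapped to mm10 with Bowtie2, or Bismark 0.18.1 after bisulfite conversion, and duplicates removed with SAMtools 1.3. KLF4 peaks were called per sample with PeaKDEck, on subsampled reads by the names of the lists, and each peak of the deposited lists has a p-value. Its settings and the subsampled depth are not given in the sources used here. The authors' MACS2 lists give fold enrichment and −log10 q, called per sample or on merged replicates, and the −log10 q was not used. The deposited M-ATAC table gives read counts of methylated and unmethylated cytosines and the percent methylated, for merged replicates, and the authors' TPM values are also merged.

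Peaks of 1 list were merged where they overlapped, and overlap required at least 1 bp. Promoters were within 3 kb of any GENCODE M21 transcription start, and 47187 of 47606 genes of the TPM table matched by identifier. Cytosines needed at least 5 reads. Shares carry 95% Wilson intervals and stand beside all genome tiles of 500 bp. Lists were compared by exact permutation tests over samples. Named are the Klf4 locus, the 10 segments with the lowest larger p-value, the 5 genes of highest TPM, the 5 segments of highest lower bound of methylation, genes of the lists, the 3 largest runs, and up to 5 segments of all 6 lists; others are said to be chosen later. Overlap and interval code was tested on simulated data. The tools were samtools 1.23.1, pysam 0.24.0, matplotlib 3.10.9, scipy 1.17.1 and pandas 2.3.3, under Python 3.11.15 with numpy 2.4.6. Lists of CTCF motifs and CTCF M-ChIP cytosines were not used here.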

Additional observations from a re-analysis of the deposited data

How the results depend on the processing

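Of 77 alternative values of the comparisons between lists, 75 kept their direction and 2 turned. The difference in promoter share between knockout and WT lists ranged from -5.26 to 2.20 points when 1 list was left out. No other comparison turned under the restriction to the lowest p-values of each list, stricter overlap, a 1 kb promoter or a core near the midpoint. A replicate block gave the same differences, with exact p = 0.5 for most and 1.00 for the promoter share against WT (0.5 is the smallest it can give). The numbers are not said to pair the samples.

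Of 76 alternative values of the segments, 44 moved, which means outside the interval of the main value or, for numbers of segments, by more than a fixed ratio. Without 1 of the knockout lists (range over both) gave 8853 to 14250 regions, of which 6.78% to 9.39% were in both WT lists, 1.59% to 1.95% in both R462A lists, 79.7% to 83.1% in no WT or R462A list, 57.6% to 61.2% in M-ATAC, 31.1% to 33.3% in ATAC and 10.6% to 13.3% in CTCF peaks, 33.8% to 39.1% near starts and 12.4% to 13.8% with the core, with 6.41 to 7.71 TPM and 1.56% to 1.94% methylation. With the lower part of each list by p-value, 3371 segments remained, with 12%, 2.94%, 78.1%, 77.4%, 46.2%, 15.0% with the core and 1.90% methylation in the same order. With at least 50% covered, 81.0% were in no WT or R462A list, 55.5% in M-ATAC, 29.9% in ATAC and 8.33% in CTCF peaks. Under 50% masked, 1.87% were in both R462A lists, 14.4% in CTCF peaks, 44.0% near starts, 15.1% held the core, and methylation was 1.47%. Within 1 kb of a start there were 27.4%, at a median of 13.6 TPM. The median was 22.6 TPM over genes of at least 1 TPM. Methylation was 1.95% at 1 read or more and 1.3% at 10 or more. Added after seeing the data, removal of chromosome 8 gave 80.3% in no WT or R462A list and 1.80% methylation, removal of the Sfi1 run 1.5% in both R462A lists and 1.69% methylation, and protein-coding genes 19.4 TPM. Apart from what each setting itself removes, the cause was not tested. Depth of the KLF4 libraries is unknown, so absence from a list cannot be told apart from low depth.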
